A study of Homo sapiens with 4 samples.

Results

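Chromosome 10 was examined as a series of 1599 genes, the genes of the deposited table whose first listed chromosome is 10, out of 39259 genes in all. They were ordered by their smallest start coordinate, and changes were read from the 461 of them whose mean over all libraries reached 1 FPKM, a unit that scales the fragments of a gene by its length and by the library total. Of the remaining genes, 534 had no fragment in any library and 604 had some fragments but a lower mean. The tested genes comprised 413 protein-coding genes and 48 of other classes, among them 31 long noncoding RNAs and 10 transcribed pseudogenes. The last genes inside the limit were BICC1 (mean 1.03 FPKM), JCAD (1.05) and HSD17B7P2 (1.06), and the first outside it were AGAP12P (0.977), ACTA2 (0.967) and BMI1 (0.966). In 14 tested genes only the mean of the libraries labelled KO reached 1 FPKM, and in 8 only that of the WT libraries, so these passed through the group in which they were higher. The chromosome was chosen because its genes were already known to differ between the groups in blocks, so the changes below describe these libraries and test nothing.

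The libraries were made from total RNA of MDA-MB-231, a human line established from triple-negative breast cancer, grown in DMEM/F-12 with serum. There were 2 wild-type (WT) libraries and 2 labelled KO, for mdig knockout; mdig is the protein of the gene RIOX2. The labels name no vector, guide or clone, and do not say whether the replicates were separate cultures, so p-values reflect no more than how these libraries differ, possibly for technical reasons. RIOX2, which lies on another chromosome, was not lower under the KO label (9.23 and 9.82 FPKM, against WT values of 8.60 and 8.24), so its RNA level did not check that label. The assigned fragments numbered 45173267 for WT replicate 1, 22503981 for WT replicate 2, 48768932 for KO replicate 1 and 52163811 for KO replicate 2. Markers of the line (8 genes, among them VIM, CD44 and KRT18) all measured at least 51.3 FPKM in every library. The 6 luminal or epithelial markers expected to be low, GATA3 of chromosome 10 among them, measured at most 4.23 FPKM. The 15 markers of fibroblasts, leukocytes, endothelium and red cells reached at most 2.09 FPKM in any WT library and 3.01 in any other. Summed, they came to 5.51 and 5.76 FPKM for WT and to 7.01 and 6.35 FPKM under the KO label, and their part in the results was not tested. In bulk RNA, fewer cells that express a gene and less RNA per cell cannot be told apart.

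Genes on a chromosome are transcribed one by one from their own promoters, but neighbours share their stretch of DNA and often its chromatin state, so a change that runs over many unrelated neighbours is seen only when expression is read in chromosomal order. Chromosome 10 holds genes of many unrelated roles. Its short arm carries GATA3, the luminal transcription factor of the breast, VIM, the intermediate filament protein of mesenchymal cells, and ZEB1, a repressor of epithelial genes. The part around the centromere carries the integrin gene ITGB1 and a group of zinc finger genes, and the urokinase gene PLAU lies farther along the long arm. The distal long arm carries the interferon-induced IFIT genes and SCD, which makes monounsaturated fatty acids.

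The pattern found in these libraries had 3 stretches, which meet between ARHGAP12 and KIF5B and between DLG5 and POLR3A. The sequences just upstream of the genes that flank these switches are shown first, for ARHGAP12 and KIF5B at the first switch and POLR3A at the second. DLG5 is named only. They are the 250 bases before the RefSeq start of each gene on GRCh38.p14, 5′ to 3′ on the gene's strand, and every CG dinucleotide is in capitals. For ARHGAP12 they lie at chr10:31928877-31929126 (minus strand), for KIF5B at chr10:32056426-32056675 (minus strand) and for POLR3A at chr10:78029516-78029765 (minus strand).
ARHGAP12: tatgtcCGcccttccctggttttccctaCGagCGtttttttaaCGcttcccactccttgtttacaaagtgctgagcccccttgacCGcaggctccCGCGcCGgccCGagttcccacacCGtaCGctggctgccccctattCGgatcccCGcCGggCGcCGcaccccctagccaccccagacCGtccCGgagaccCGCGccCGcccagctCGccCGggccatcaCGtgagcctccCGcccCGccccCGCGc
KIF5B: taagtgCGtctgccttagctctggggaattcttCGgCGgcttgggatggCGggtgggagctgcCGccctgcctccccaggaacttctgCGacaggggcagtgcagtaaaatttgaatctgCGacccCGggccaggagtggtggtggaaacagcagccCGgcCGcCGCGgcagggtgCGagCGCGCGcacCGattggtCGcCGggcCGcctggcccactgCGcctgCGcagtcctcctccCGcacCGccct
POLR3A: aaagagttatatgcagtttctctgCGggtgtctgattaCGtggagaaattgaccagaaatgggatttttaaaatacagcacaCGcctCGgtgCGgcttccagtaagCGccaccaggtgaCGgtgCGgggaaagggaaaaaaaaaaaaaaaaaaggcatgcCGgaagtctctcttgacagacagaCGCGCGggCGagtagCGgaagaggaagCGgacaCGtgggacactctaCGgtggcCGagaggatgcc
ARHGAP12 had 28 CG dinucleotides in this window, KIF5B 24 and POLR3A 18, so the first switch lies between a pair of genes with CG-rich upstream sequence of like content.

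The second set shows 3 of the 4 genes that stood farthest above their neighbours (ANXA8 is named only), ANXA8L1 in the middle stretch (chr10:46375526-46375775 (plus strand)) and ADIRF (chr10:86968232-86968481 (plus strand)) and HTRA1 (chr10:122461303-122461552 (plus strand)) in the distal one.
ANXA8L1: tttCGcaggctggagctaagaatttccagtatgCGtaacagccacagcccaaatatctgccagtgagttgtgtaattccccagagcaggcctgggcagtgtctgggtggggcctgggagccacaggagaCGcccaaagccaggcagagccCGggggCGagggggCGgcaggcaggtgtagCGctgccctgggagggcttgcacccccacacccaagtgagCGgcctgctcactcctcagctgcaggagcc
ADIRF: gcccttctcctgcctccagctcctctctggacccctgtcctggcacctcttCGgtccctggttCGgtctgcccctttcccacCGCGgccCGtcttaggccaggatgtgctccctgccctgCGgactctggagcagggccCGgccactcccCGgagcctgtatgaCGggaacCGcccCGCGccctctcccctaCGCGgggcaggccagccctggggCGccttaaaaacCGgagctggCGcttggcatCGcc
HTRA1: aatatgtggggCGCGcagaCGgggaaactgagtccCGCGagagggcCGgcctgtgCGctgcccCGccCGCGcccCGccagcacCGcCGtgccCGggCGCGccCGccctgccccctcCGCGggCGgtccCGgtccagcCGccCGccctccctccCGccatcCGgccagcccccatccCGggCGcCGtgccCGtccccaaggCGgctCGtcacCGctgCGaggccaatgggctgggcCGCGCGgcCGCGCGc
These held 8, 18 and 39 CG dinucleotides. The CG dinucleotide reads the same on both strands, and its copies do not overlap. Over the 390 tested genes of the chromosome that matched the promoter table, the median was 20 (quartiles 14 and 28), against 21 (15 and 28) over 9241 tested genes of all chromosomes. By stretch the median was 25 (13 and 32) in 95 genes of the first, 19 (15 and 25) in 98 genes of the second and 20 (13 and 26) in 197 genes of the third. The letters TATAAA, searched on both strands, were in 4.21%, 7.14% and 6.09% of these windows, against 4.91% for all tested genes and 11.1% of 27305 promoters in the table. These counts describe the windows only.

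Along the chromosome, the libraries labelled KO were lower than WT over most of the short arm, higher over a long middle stretch and close to the level of all genes beyond it. Differences are given as log2(FPKM + 1), KO minus WT, a scale that understates the change of low genes. The first stretch ran from ZMYND11 to ARHGAP12 (130088 to 31928876, coordinates as deposited, which match GRCh38) and held 104 tested genes with a median difference of −0.31 (quartiles −0.47 and −0.12). The second ran from KIF5B to DLG5 (32009015 to 77926755) and held 125 tested genes with a median of 0.36 (0.22 and 0.47). The third ran from POLR3A to CYP2E1 (77975149 to 133539123) and held 232 tested genes with a median of −0.078 (−0.22 and 0.035). As ratios of the group means without the pseudocount, the median gene stood at 0.777, 1.33 and 0.938 of its WT level. Over all 11716 genes tested, the median difference was −0.041 (−0.21 and 0.15) and the median ratio 0.967. The median of the whole chromosome, −0.036, lay close to that of all genes, and hides stretches of opposite sign.

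**Figure D1:**
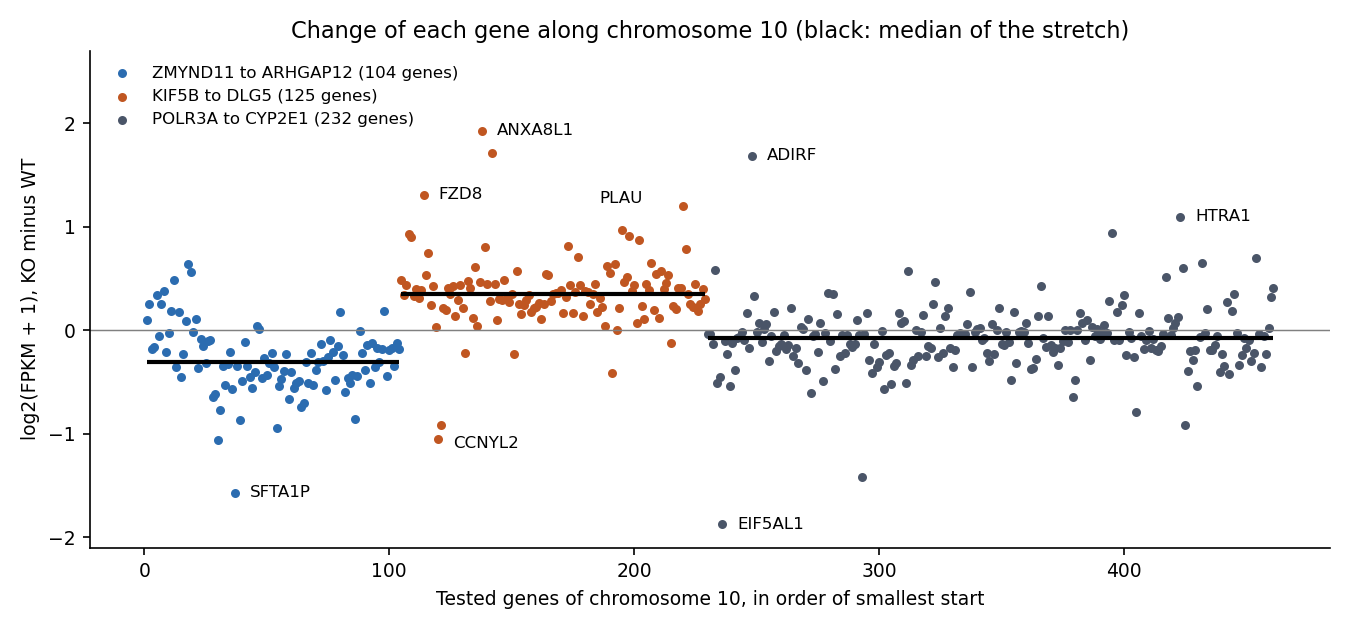
Each point is 1 of the 461 tested genes, in order of smallest start on the horizontal axis, with its difference in log2(FPKM + 1), KO minus WT, on the vertical axis. Black bars mark the medians of the 3 stretches, −0.31, 0.36 and −0.078; the level steps up after ARHGAP12 and down after DLG5.

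Read gene by gene, the direction was the same for most members of the first and second stretches. Of the 104 genes of the first stretch, 88 were below 0 and 16 above, and of the 125 genes of the second, 119 were above 0 and 6 below. In the third, 161 of 232 were below 0 and 71 above, against 56.2% below 0 over all genes tested. Both libraries labelled KO lay below both WT libraries in 84 genes of the first stretch, and above both in 114 genes of the second, against 44.6% and 32.9% of all genes tested.

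By limma on the whole table, with Benjamini-Hochberg adjusted p under 0.05 as the threshold, 140 of the 461 genes were higher and 155 lower, against 21.6% higher, 28.4% lower and 49.9% in either direction over all genes tested. In the first stretch 7 were called higher and 71 lower, in the second 102 and 5, and in the third 31 and 79. The contrast chose the chromosome, so nothing is read from these shares. The counts rested on the scaling, with 151 called higher and 127 lower after median-of-ratios scaling. They also rested on the libraries kept, as did the counts over all genes tested, since leaving out a library left 1 in its group. The medians of the stretches then ranged from −0.33 to −0.27, from 0.34 to 0.36 and from −0.097 to −0.068.

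In windows of 5 Mb, 26 held at least 5 tested genes. Their medians began at 0.088 in the first window (17 genes) and were −0.26, −0.40, −0.50, −0.26 and −0.33 in the next 5, from 5 to 30 Mb. The lowest of them, from 15 to 20 Mb, held 14 tested genes, all below 0, of which 13 were called lower. The window from 30 to 35 Mb holds the first switch and had a median of 0.19, with 7 genes above 0 and 6 below. The next 8 windows, from 35 to 75 Mb, had medians of 0.42, 0.21, 0.44, 0.31, 0.25, 0.26, 0.36 and 0.40. The fullest of these, from 70 to 75 Mb, had 39 of 41 genes above 0. The window from 75 to 80 Mb holds the second switch, with a median of 0.073, and the 10 windows beyond it that held enough genes ranged from −0.15 to −0.013.

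Against the other chromosomes, chromosome 10 had 8 of 26 windows at 0.2 or more and 5 at −0.2 or less. On the other chromosomes these were 63 and 40 of 497 windows (12.7% and 8.05%). All 5 low windows were among the 20 lowest of the 523 windows, and the one from 15 to 20 Mb was the lowest; 1 window, from 45 to 50 Mb, was among the 20 highest. The SD of the window medians, 0.262, ranked 3 of 23 chromosomes, behind chromosome 4 (0.334) and the X chromosome (0.266). These ranks are a description, since the chromosome was picked for its blocks.

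Within groups, where the choice of the chromosome plays no part, the windows did not step. The median of WT replicate 2 minus WT replicate 1 ranged from −0.088 to 0.066 over the 26 windows, and that of KO replicate 2 minus KO replicate 1 from −0.018 to 0.074. By stretch these medians were −0.016, −0.027 and −0.0090 for the WT pair and 0.038, 0.035 and 0.026 for the pair labelled KO. Between groups, all 4 pairs of libraries gave the same order. For KO 1 minus WT 1 the medians of the stretches were −0.34, 0.32 and −0.11, and for KO 2 minus WT 2, a pair that shares no library with it, −0.27, 0.38 and −0.071.

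**Figure D2:**
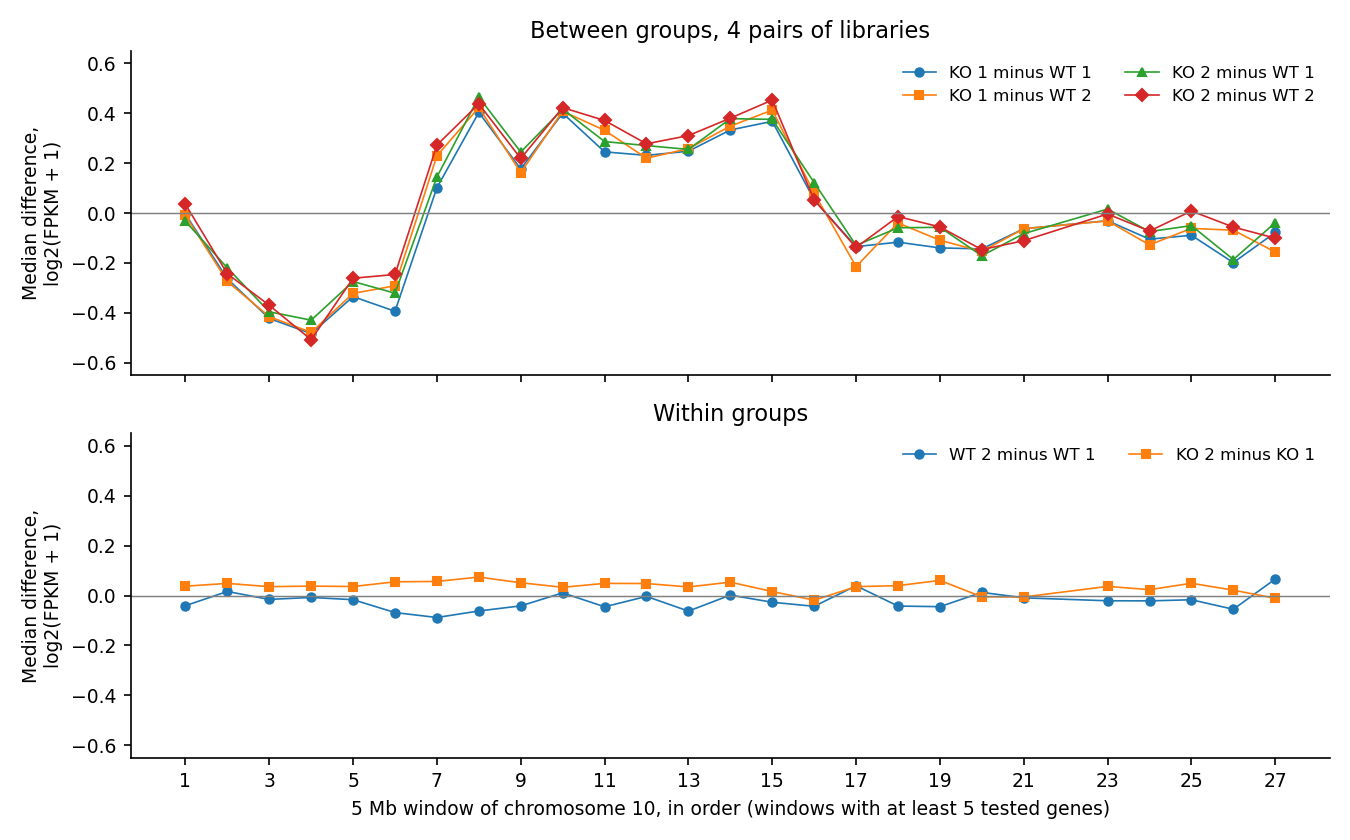
Median difference in log2(FPKM + 1) of the tested genes in each 5 Mb window of chromosome 10, in order; the upper panel shows the 4 pairs of a library labelled KO with a WT library, the lower panel the pairs within groups. The upper curves are lowest in window 4, where they run from −0.51 to −0.43. They stay above 0 from window 7 through the window from 75 to 80 Mb, which holds the second switch. The lower curves stay between −0.088 and 0.074.

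The switches were placed by splitting the ordered genes so that the summed absolute distance from the stretch medians was smallest, with at least 10 genes in a stretch and a further split only where it lowered the sum by at least 5% of the unsplit value. The first split lowered it by 8.11%, the second by 20.03% and one more would have lowered it by 2.96%. The same pair of switches was found in each of the 4 pairs of libraries, and none in either pair within a group. Below the 5% limit, that further split would fall between LINC02678 and ASB13, at 5638867. The 21 genes before it had a median of 0.10, with 6 called higher and 5 lower, and the 83 genes from ASB13 to ARHGAP12 had a median of −0.35, with 1 called higher and 66 lower.

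At the first switch the change turned between ARHGAP12, a GTPase-activating protein, and KIF5B, the heavy chain of conventional kinesin. The genes lie 80.1 kb apart with 2 untested genes whose starts fall between theirs. ARHGAP12 measured 12.4 and 12.1 FPKM in WT and 10.3 and 11.2 FPKM in the libraries labelled KO. This difference of −0.18 (SE 0.061) passed the limma threshold (adjusted p = 0.0386), but the call was lost without KO replicate 1 (−0.12, adjusted p = 0.321), without KO replicate 2 (−0.24, adjusted p = 0.0725), with no filter on low values (adjusted p = 0.109) and after median-of-ratios scaling (adjusted p = 0.0848). KIF5B measured 55.9 and 51.6 FPKM in WT and 74.1 and 77.1 FPKM in the libraries labelled KO, a rise of 0.49 (SE 0.059). The groups did not overlap for either gene, and they moved in opposite directions. The 10 genes before the switch had a median of −0.18 and 1 of them, JCAD, lay above 0. The 10 genes after it had a median of 0.42 and ranged from 0.32 to 1.31.

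At the second switch the change fell from DLG5, a scaffold protein of cell junctions, to POLR3A, the largest subunit of RNA polymerase III. These genes lie 48.4 kb apart, again with 2 untested genes starting between them. DLG5 measured 12.2 and 11.4 FPKM in WT and 14.9 and 14.6 FPKM in the libraries labelled KO, a rise of 0.30 (SE 0.058). POLR3A measured 10.9 and 9.86 FPKM in WT and 10.0 and 10.1 FPKM in the libraries labelled KO, and the groups overlapped. The ribosomal protein gene RPS24, next along, also overlapped, at 296 and 292 FPKM in WT and 275 and 299 under the KO label. RPS24 has pseudogene copies that can share its reads. All 10 genes before the switch lay above 0, with a median of 0.33, and 1 of the 10 after it did, ZMIZ1, a transcriptional coregulator that rose by 0.58. The median of the latter was −0.18.

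**Figure D3:**
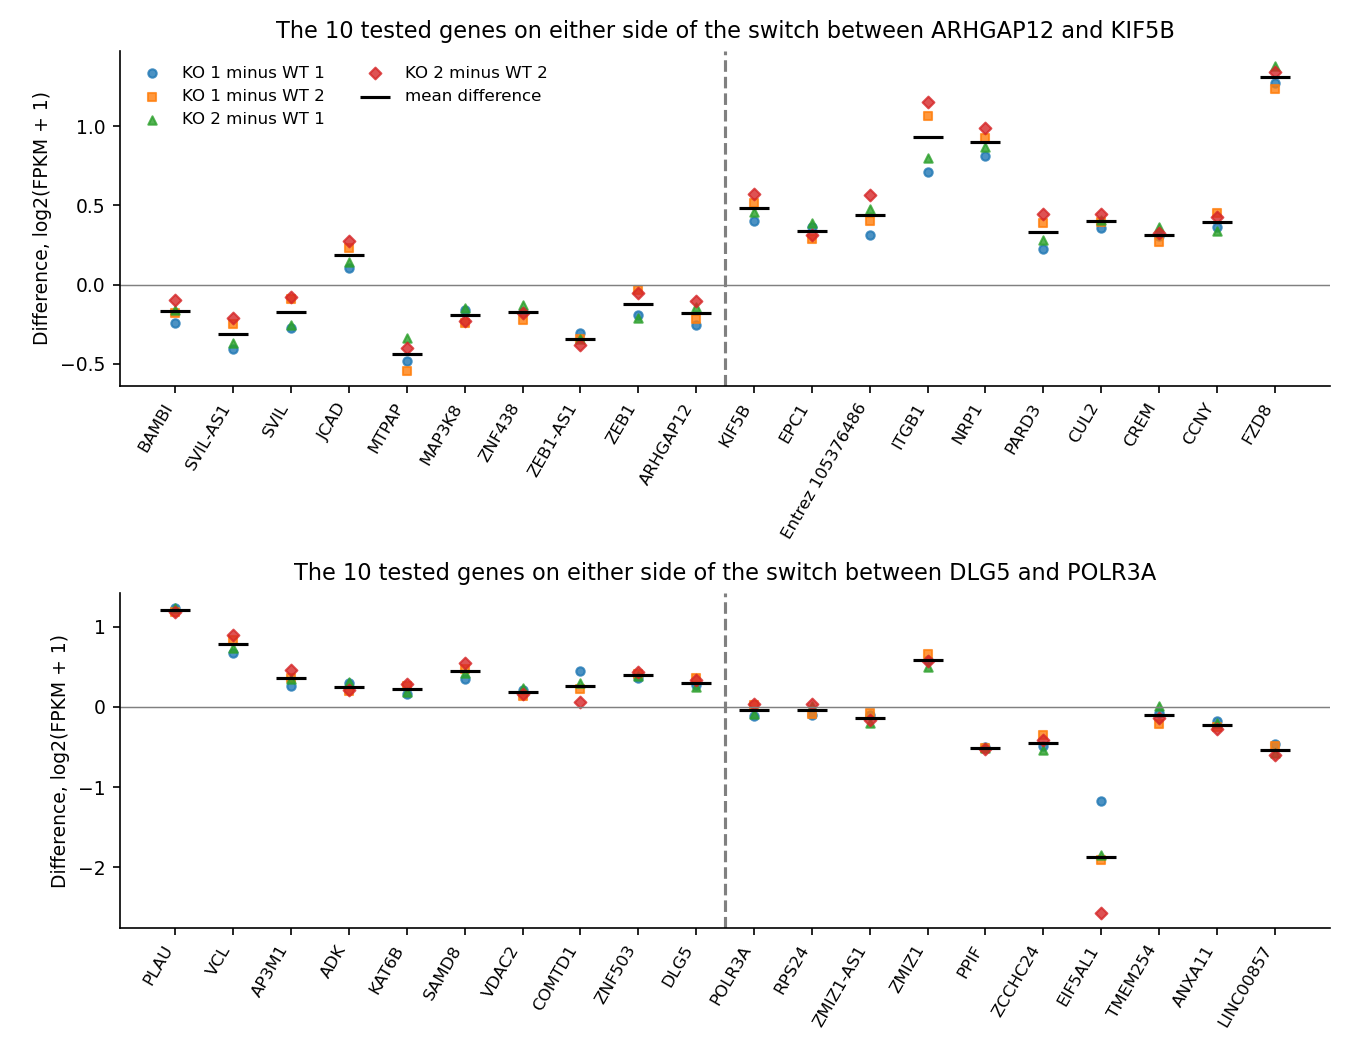
Difference in log2(FPKM + 1) for the 10 tested genes on either side of each switch, in chromosomal order; markers show the 4 pairs of libraries, black bars their mean, and the dashed line the switch. On the left of the upper panel 1 gene of 10 lies above 0 and on its right all 10 do; the lower panel shows the reverse step, with ZMIZ1 above 0 after it.

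The middle stretch spans the centromere. The largest distance between neighbouring tested genes there, apart from 2 gene-poor stretches of the long arm, was 3.95 Mb, between HSD17B7P2 and LOC441666. The 14 genes from KIF5B to HSD17B7P2 had a median of 0.44 and were all called higher. Among them FZD8, ZNF25 and HSD17B7P2 passed the filter only through the libraries labelled KO (WT means of 0.356, 0.981 and 0.752 FPKM). The filter itself favours a rise in such genes, so the count of 14 overstates how uniform this part was. The 111 genes from LOC441666 to DLG5 had a median of 0.35, with 88 called higher and 5 lower. The medians on either side of the gap thus had the same sign.

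Genes too low to be tested individually were summed. In the first stretch, the 298 genes below the limit took 83.2 and 79.0 of every 1000000 fragments in WT, against 60.7 and 63.1 under the KO label (ratio 0.763). In the middle stretch, 326 such genes took 116 and 114 in WT, against 156 and 158 under the KO label (ratio 1.36). In the third, 514 genes took 167 and 166 in WT, against 142 and 146 under the KO label (ratio 0.868). Over the whole chromosome the ratio for genes below the limit was 1.002, and for the tested genes of the third stretch it was 0.992. The low genes were not used to place the switches. They lie on the chosen chromosome and in the same contrast, though, so these sums describe the libraries and support nothing. With the tested genes included, the stretches took 1.27%, 0.827% and 2.08% of the fragments of WT replicate 1, 1.28%, 0.788% and 2.01% of WT replicate 2, 1.07%, 1.12% and 2.002% of KO replicate 1 and 1.09%, 1.16% and 2.05% of KO replicate 2.

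The medians of the first and middle stretches kept their sign in every class of level and gene type, but the share of genes that went with the stretch differed. In the first stretch, the median ratio of the group means was 0.825 for genes with a mean of 1 to 5 FPKM, 0.769 from 5 to 20 FPKM and 0.754 from 20 FPKM up. Of the 35 genes in the lowest of these classes 31.4% were above 0, against 6.82% of 44 and 8% of 25 in the others. In the middle stretch it was 1.37, 1.33 and 1.32 in the same classes, and all 49 genes from 5 to 20 FPKM were above 0. The protein-coding genes of the first and middle stretches had median differences of −0.32 (87 genes) and 0.36 (111 genes), and the genes of other classes −0.23 (17 genes) and 0.32 (14 genes). In the first stretch 12.6% of the protein-coding genes and 29.4% of the others were above 0, and in the middle stretch 3 of 111 and 3 of 14 were below 0. Distances from the stretch median were of like size, with a median of 0.18 in the first stretch, 0.13 in the second and 0.14 in the third.

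Pooled over the lists, genes grouped by what they do were called at shares near those of all tested genes of their stretch. Single lists could differ, as the mitochondrial list below did. Of 170 tested genes in 9 lists of chromosome 10 genes, 3 of 35 in the first stretch were called higher and 23 lower, where 6.73% and 68.3% of all its tested genes were. In the middle stretch 44 of 52 were called higher and 2 lower, against 81.6% and 4% of all its tested genes, and in the third 10 of 83 and 24, against 13.4% and 34.1%. The counts by stretch below are to be read against these shares, and no list was tested against its stretch. The list of adhesion, cytoskeleton and matrix genes had 26 tested members of 35 and a median of 0.33, against −0.041 for all genes. All 11 of its members in the middle stretch were called higher, where 102 of 125 tested genes were. Of the 11, ANXA8L1 and ANXA8 passed the filter only through the libraries labelled KO (WT means of 0.581 and 0.680 FPKM). They are near-identical copies that can share reads, so they do not count as separate members. ITGB1, the shared beta-1 integrin subunit, measured 151 and 118 FPKM in WT and 248 and 264 FPKM in the libraries labelled KO (0.93, SE 0.12). Both KO values were well above WT, and the WT replicates differed from each other by more than those labelled KO. NRP1, a co-receptor for semaphorins and VEGF, went from 52.9 and 48.7 to 93.5 and 97.5 FPKM. VCL, which links integrins to actin, went from 51.8 and 46.2 to 83.2 and 86.6 FPKM. PLAU, the urokinase protease, went from 57.5 and 59.3 to 136 and 136 FPKM, a rise of 1.20 (SE 0.050) in a window whose other genes had a median of 0.39. P4HA1, a collagen prolyl hydroxylase, rose by 0.87. These 5 genes rose by more than the median of their neighbours, while COL13A1 (0.35) and TSPAN15 (0.37), listed with them, stood at the level of their window.

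Members of that list outside the middle stretch behaved differently. VIM, in the first stretch and with the highest FPKM of the chromosome, measured 2275 and 2394 FPKM in WT and 2000 and 2000 FPKM in the libraries labelled KO. Its fall of 0.22 (SE 0.060) was smaller than that of its neighbours (window median −0.51). Leaving out either library labelled KO ended the call, with 1 library left in that group. The difference itself stayed at −0.22 without replicate 1 and at −0.22 without replicate 2. In the third stretch 3 of 12 members were called higher and 2 lower. AFAP1L2, an adaptor of SRC signaling, rose from 8.25 and 7.82 to 15.8 and 16.9 FPKM, and ADAM8, a membrane metalloprotease, by 0.70.

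The list of cell division and DNA replication genes had 22 tested members of 23 and a median of −0.012. All 4 in the first stretch were called lower, all 6 in the middle stretch higher, and of 12 in the third 1 higher and 1 lower. The 6 include KIF5B, the kinesin at the first switch, which was kept in this list. MCM10, needed to start DNA replication, measured 25.04 and 22.9 FPKM in WT and 16.8 and 17.5 FPKM in the libraries labelled KO. ZWINT, a kinetochore protein, went the other way, from 54.7 and 54.6 to 80.2 and 83.1 FPKM. CDK1, the mitotic kinase, rose by 0.22, close to its window median of 0.26. MKI67, the proliferation marker in the third stretch, measured 92.7 and 72.8 FPKM in WT and 79.4 and 81.5 FPKM under the KO label, with overlapping groups. Over all tested genes, 71 of 104 in the first stretch were called lower, 102 of 125 in the middle one higher, and 122 of 232 in the third were not called.

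Among 25 tested mitochondrial genes of 26 (median −0.14), 5 of 6 in the first stretch were called lower and none was above 0. In the middle stretch all 9 were above 0 with 4 called higher, and in the third all 10 were below 0 with 6 called lower. Over all tested genes of these stretches, 95.2% were above 0 and 81.6% called higher in the middle one, and 69.4% below 0 and 34.1% called lower in the third. ATP5F1C, a subunit of ATP synthase, fell from 201 and 210 to 140 and 146 FPKM. PDSS1, which builds the side chain of coenzyme Q, fell from 7.19 and 7.04 to 3.61 and 3.37 FPKM (−0.85, SE 0.060), farther than its window median of −0.31. TWNK, the mitochondrial DNA helicase of the third stretch, fell by 0.35.

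Transcription and chromatin genes had 31 tested members of 37 and a median of −0.044. In the first stretch all 8 were below 0 and 5 called lower, among them GATA3, at 4.23 and 4.22 FPKM in WT and 3.53 and 3.49 FPKM in the libraries labelled KO. ZEB1 measured 11.9 and 10.5 FPKM in WT and 10.3 and 10.1 FPKM in the libraries labelled KO and was not called (adjusted p = 0.165; limma). Without WT replicate 2 it passed the threshold (−0.20, adjusted p = 0.00822; limma). RBM17, a splicing factor kept in this list, fell by 0.64, the lowest value of the list. All 11 members of the middle stretch were called higher, led by the zinc finger gene ZNF33A (3.72 and 3.45 to 6.42 and 6.94 FPKM). Of the 11, ZNF25 passed the filter only through the libraries labelled KO (WT mean 0.981 FPKM). ZNF33A has a close copy, ZNF33B, on the other side of the centromere, and reads of the pair can be shared.

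Of 17 tested genes of cell death and stress (20 on the chromosome, median 0.10), 8 were called higher and 4 lower. Over all tested genes of the chromosome these shares were 30.4% and 33.6%. In the first stretch 2 of 3 were called lower. In the middle one 5 of 6 were called higher, and in the third 3 of 8 higher and 2 lower. DDIT4, an inhibitor of mTORC1, measured 32.2 and 34.6 FPKM in WT and 64.1 and 63.4 FPKM in the libraries labelled KO. PPIF, the cyclophilin of the mitochondrial permeability pore, lay just beyond the second switch and fell from 56.1 and 56.5 to 39.3 and 39.1 FPKM. Of 21 tested genes of glycolysis and lipid metabolism (25 on the chromosome, median −0.055), 7 were called higher and 8 lower. The lower ones include PCBD1 and GOT1, kept in this list. In the first stretch 2 of 5 were called higher and 3 lower. The higher ones, IDI1 and PFKP, lie before the turn at ASB13, where 6 of 21 tested genes were called higher. In the middle stretch 4 of 5 were called higher and 1 lower, and in the third 1 of 11 and 4. SCD rose by 0.47 in the third stretch, at 168 and 157 FPKM in WT and 221 and 230 FPKM in the libraries labelled KO. PFKFB3, which makes the activator of phosphofructokinase, fell by 0.61 in the first stretch.

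Of 23 tested signaling genes (34 on the chromosome, median −0.090), 5 were called higher and 8 lower, against 30.4% and 33.6% of all tested genes of the chromosome. In the first stretch 2 of 4 were called lower. In the middle one 3 of 5 were called higher and 1 lower, and in the third 2 of 14 and 5. The Wnt receptor gene FZD8 is described below. DKK1, a secreted Wnt inhibitor, fell in the middle stretch, from 84.1 and 92.2 to 72.9 and 76.8 FPKM. The 4 tested IFIT genes of 5 had a median of −0.14, with IFIT1 alone called (−0.18, from 14.4 and 14.3 to 12.4 and 12.7 FPKM). That call was lost with no filter (limma adjusted p = 0.0559) and after median-of-ratios scaling (0.0569). It was also lost without KO replicate 1 and without KO replicate 2, where the differences were −0.17 and −0.19. Of 16 aldo-keto reductase and xenobiotic genes, 4 were tested (median 0.25), with AKR1C3 and CYP2E1 called higher and GSTO1 lower. Both members of this list in the first stretch were above 0, and both lie before the turn at ASB13, where 12 of 21 tested genes were. The list had none in the middle stretch, while all IFIT genes lie in the third. The GSTO1 call (−0.17) was lost with no filter (limma adjusted p = 0.0637), after quantile normalization (0.0804) and after median-of-ratios scaling (0.0711). It was also lost without KO replicate 1 and without KO replicate 2, where the differences were −0.17 and −0.17.

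**Figure D4:**
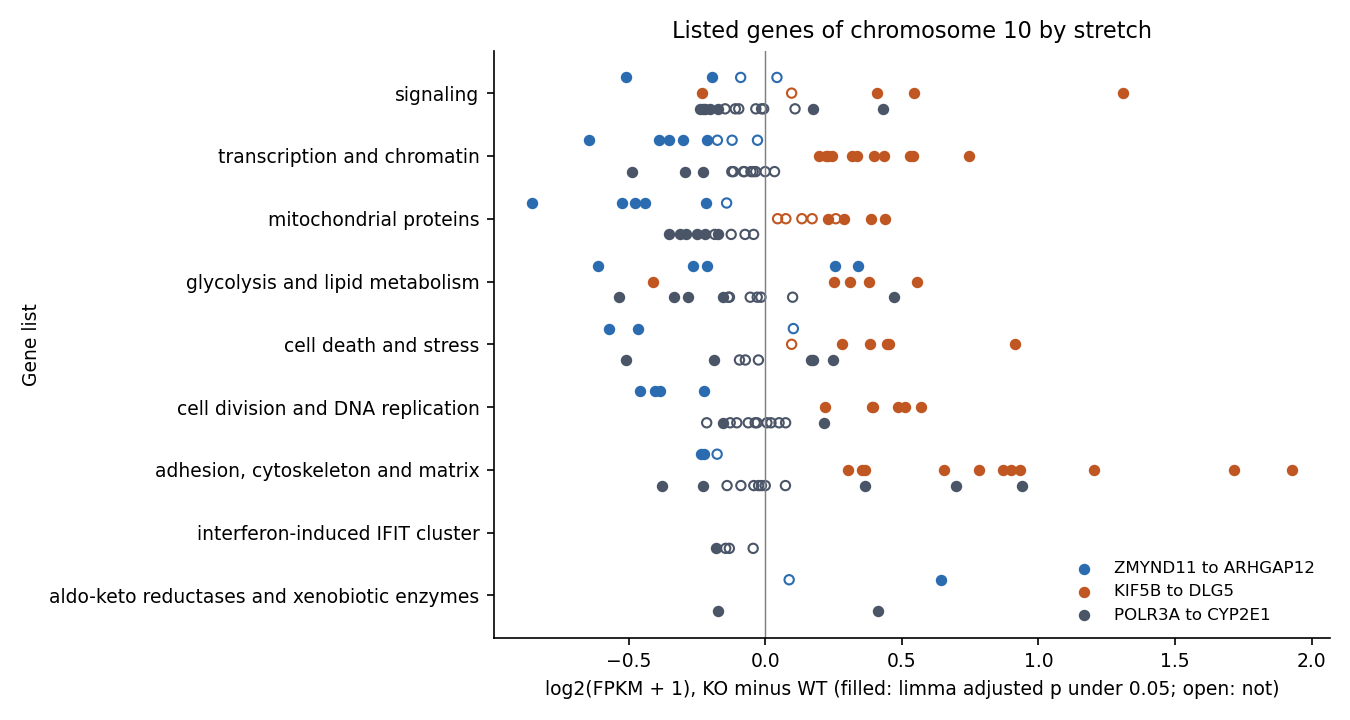
Difference in log2(FPKM + 1), KO minus WT, for each tested member of 9 gene lists (rows), colored by stretch, with filled points for genes past the limma threshold. In the lists of cell division and of transcription, all points of the middle stretch lie above 0 and all points of the first stretch below it.

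A few genes stood apart from their neighbours. Against the median of the other genes in the same 5 Mb window, 4 genes lay at least 1 higher on the log2 scale and 5 at least 1 lower, and 23 and 21 lay at least 0.5 away. In windows that hold a switch the local median mixes the stretches. This bears on ITGB1, NRP1, MTPAP, PPIF, ZCCHC24 and EIF5AL1, whose 10 nearest tested genes on each side also reach across a switch. The distance from the median of the gene's own stretch does not mix them. That distance was 0.58 for ITGB1, 0.54 for NRP1, −0.13 for MTPAP, −0.43 for PPIF, −0.37 for ZCCHC24 and −1.79 for EIF5AL1. MTPAP thus stood near the median of its stretch.

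The highest genes of the middle stretch were ANXA8L1 and ANXA8, annexins that bind membrane phospholipids with calcium. ANXA8L1 measured 0.526 and 0.637 FPKM in WT and 4.99 and 5.03 FPKM in the libraries labelled KO, from 48 and 29 fragments in WT and 492 and 531 in the others. The difference was 1.93 (SE 0.065), where the other genes of its window had a median of 0.43. Its distance from the window, 1.4998, became 2.43 when 0.1 replaced 1 as the pseudocount and 2.66 under voom. ANXA8 measured 0.545 and 0.816 FPKM in WT and 4.44 and 4.55 FPKM in the libraries labelled KO, 1.29 above its window (2.10 with a pseudocount of 0.1 and 2.35 with voom). The genes are near-identical copies, so reads of the pair cannot be told apart with certainty. FZD8, a Wnt receptor, went from 0.339 and 0.373 to 2.24 and 2.49 FPKM, 0.91 above its window, from 62 and 34 fragments in WT. For FZD8 the distance became 1.98 with a pseudocount of 0.1 and 2.26 with voom, so the order of the highest genes depends on the pseudocount. All 3 genes passed the filter through the libraries labelled KO.

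Within the same stretch, 5 genes were called lower, and they are named here after their values were seen. CCNYL2, a pseudogene of a cyclin Y-like gene, measured 3.24 and 3.46 FPKM in WT and 1.07 and 1.14 FPKM in the libraries labelled KO. Its neighbour LINC00839, a long noncoding RNA, went from 4.54 and 4.37 to 1.87 and 1.92 FPKM. These lay 1.26 and 1.13 below their window, side by side near the centromere. PCBD1, an enzyme of tetrahydrobiopterin recycling, went from 23.7 and 24.0 to 18.1 and 17.3 FPKM, 0.81 below a window in which 39 of 41 genes were above 0. DKK1 and DEPP1 fell by 0.23 and 0.22.

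In the first stretch, 7 genes were called higher, again named after their values were seen. From the start of the chromosome they were DIP2C (0.25), IDI1 (0.34), PFKP (0.26), LOC105376369 (0.48), AKR1C3, NET1 and, alone beyond ASB13, KIAA1217 (0.18). AKR1C3, a steroid-converting aldo-keto reductase, went from 3.06 and 3.99 to 6.30 and 5.76 FPKM, and its close paralogs can share reads. NET1, an exchange factor for small GTPases, went from 15.2 and 14.5 to 21.9 and 23.04 FPKM. The window of AKR1C3 and NET1 also spans the turn at ASB13, so its median overstates how far both stood out. They rose by 0.64 and 0.57, where the 21 genes before ASB13 had a median of 0.10. Among the falls, SFTA1P, a transcribed pseudogene overlapped on the other strand by CELF2, went from 49.96 and 55.5 to 16.8 and 17.4 FPKM, 1.17 below its window. The strand setting of the counting is not given in the sources used here, so reads of overlapping genes may be mixed. FAM107B fell by 0.94, from 34.6 and 35.5 to 17.5 and 18.0 FPKM.

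In the third stretch, whose median lay near that of all genes, ADIRF stood highest. This gene, known as adipogenesis regulatory factor, measured 6.67 and 7.37 FPKM in WT and 26.1 and 23.5 FPKM in the libraries labelled KO. Its difference of 1.68 (SE 0.071) lay 1.73 above its window, and it overlaps ADIRF-AS1 on the other strand. HTRA1, a secreted serine protease, went from 10.6 and 10.5 to 23.2 and 24.2 FPKM, 1.15 above its window. Below their windows lay FAM24B, at 9.35 and 8.35 FPKM in WT and 4.22 and 4.26 FPKM in the libraries labelled KO, and NANOS1, an RNA-binding regulator of translation, at 1.97 and 2.07 against 0.735 and 0.759 FPKM. FGFBP3, which binds fibroblast growth factors, went from 1.74 and 1.93 to 0.795 and 0.931 FPKM. NANOS1 and FGFBP3 passed the filter only through the WT libraries. On the other strand, EIF3A overlaps NANOS1 and C10orf88B overlaps FAM24B. With a pseudocount of 0.1 the distance from the window went from −0.71 to −1.23 for NANOS1 and from −0.55 to −0.95 for FGFBP3. The retrocopy EIF5AL1 measured 6.28 and 11.04 FPKM in WT and 2.22 and 1.03 FPKM under the KO label, with a difference of −1.87 and a large error (SE 0.45), and it was not called (adjusted p = 0.0737). It passed the limma threshold with no filter (adjusted p = 0.0326) and without the trend and robust options (adjusted p = 0.00279). It is near-identical to EIF5A on another chromosome. RPL13AP5, a ribosomal protein pseudogene, was likewise not called at −1.42, and in both genes the replicates differed widely within each group. ANKRD1, a cardiac ankyrin repeat protein and second in FPKM on the chromosome, fell from 395 and 397 to 307 and 327 FPKM.

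**Figure D5:**
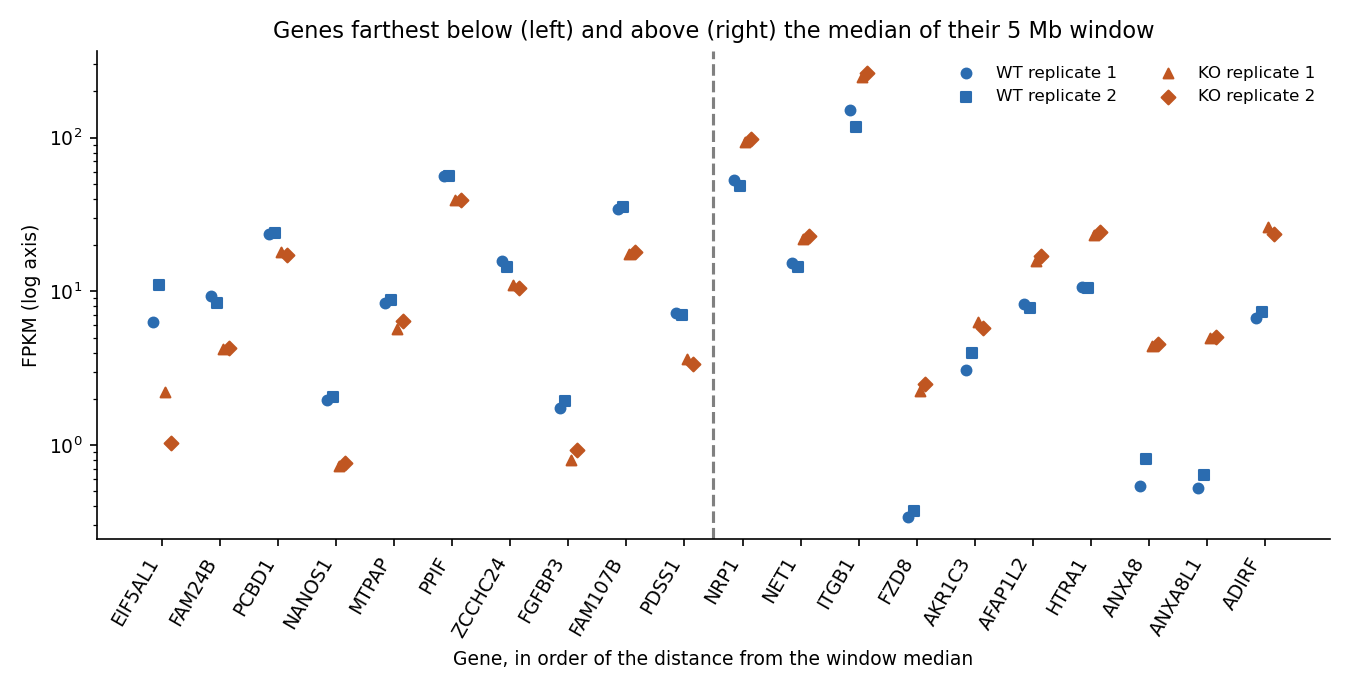
FPKM on a log axis in the 4 libraries for the 10 protein-coding genes farthest below and the 10 farthest above the median of their 5 Mb window, in order of that distance, among genes whose groups do not overlap. By that choice both libraries labelled KO lie on one side of both WT libraries, and EIF5AL1 shows the widest spread within groups.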

How the data were processed

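RNA from 4 libraries of MDA-MB-231 cells (2 WT and 2 labelled KO, grouped by their titles) was analysed from 1 table of FPKM values deposited by the authors, in which genes are given by Entrez ID with their length, per the file headers. STAR, Subread and DESeq2 appear in the submitters' processing notes, without roles. Genome build and annotation: not given in the sources used here, nor whether counting used strand. FPKM times length gave whole fragments for 100% of values above 0 (tolerance 0.001), and their sums are the depths. The table had 0 columns of other samples. RefSeq symbols on GRCh38.p14 matched 1524 of the 1599 genes. The start or end of 98.4% of these lay within 1000 bp of RefSeq's.

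Differences were fitted with limma 3.58.1 (R 4.3.3; trend and robust) on log2(FPKM + 1) over all 11716 genes whose mean reached 1 FPKM, with Benjamini-Hochberg adjustment over all of them and a threshold of 0.05. Windows, switches and local medians were computed with Python 3.11.15. The steps were tested on simulated data. The chromosome and the gene lists were chosen with earlier results of these data known. The named genes were the 10 farthest above and below the median of their window (protein-coding, groups not overlapping, at least 5 other genes), the 2 genes on each side of each switch, the highest and lowest member of each list, the 5 most abundant genes and the largest rise and fall in each stretch, 47 in all. Others are named from the lists, as neighbours or after their values were seen. Replicates were separate libraries by their counts: chi-square divided by its degrees of freedom was 8.23 within WT and 5.69 within KO. The labels name no shared culture behind the replicate numbers, which were not treated as pairs. Alternatives covered the pseudocount, the filter, the scaling, voom on fragments, the window and stretch sizes, a block on replicate number, and leaving out each library. Values of some genes are not reported here.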

Additional observations from a re-analysis of the deposited data

How the results depend on the processing

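Under every alternative that gave a value, both switches stayed at KIF5B (32.0 Mb) and POLR3A (78.0 Mb); with no filter on low values the rule found none, since the first split of 1065 genes, most of them near 0, lowered the sum by 0.940%. Medians of the first, the middle and the third stretch were −0.36, 0.41 and −0.091 with a pseudocount of 0.1, −0.051, 0.10 and −0.020 with no filter, −0.36, 0.38 and −0.092 at a mean of 5 FPKM, −0.30, 0.38 and −0.053 after quantile normalization, −0.28, 0.40 and −0.039 after median-of-ratios scaling and −0.36, 0.42 and −0.094 with voom on fragments. Leaving out 1 library in turn gave −0.33 to −0.27, 0.34 to 0.36 and −0.097 to −0.068. The median of the whole chromosome turned to 0.0044 after median-of-ratios scaling and was −0.0054 with no filter. Windows at 0.2 or more numbered 8, against 1 with no filter and 5 in windows of 10 Mb; windows at −0.2 or less numbered 5, against 1 with no filter, 10 in windows of 2.5 Mb and 2 in windows of 10 Mb. Genes called higher and lower ranged from 97 to 155 and from 91 to 164 without 1 library. With the replicate block these were 131 and 136, and ARHGAP12 (limma adjusted p = 0.0734), IFIT1 (0.0652) and GSTO1 (0.0563) were not called. Same-numbered libraries deviated in opposite directions (correlation −0.225), and the crossed block, chosen after seeing the data, gave 151 and 170. Against 140 higher and 155 lower in the main fit, median-of-ratios scaling gave 151 and 127 and quantile normalization 149 and 141. With voom on fragments lower calls stayed in excess (151 and 165). Over all genes tested, 43.2% of calls were higher in the main fit, 51.9% after median-of-ratios scaling and 48.3% after quantile normalization. The excess of lower calls thus depended on the scaling. POLR3A changed sign to 0.0062 and IFIT3 to 0.00045 after median-of-ratios scaling, RPS24 to 0.0095; without 1 library in turn, POLR3A ranged from −0.10 to 0.031, IFIT3 from −0.092 to 0.0041 and RPS24 from −0.096 to 0.024. None of these 3 genes was called. After median-of-ratios scaling the median of all genes tested also moved up, from −0.041 to −0.0016. The cause of these shifts was not tested, beyond the genes near 0 that an open filter adds. Over all alternatives, 574 values of named genes kept direction and side of the threshold, 18 lost it, 4 gained it and 6 changed sign. Of the distances from local medians, 154 moved by less than the spread between replicates and 60 by more, most of them with voom, a pseudocount of 0.1 or no filter; with no filter PDSS1 went from −0.54 to −0.82 and MTPAP from −0.70 to −0.43. WT replicate 2, with 22503981 fragments, sets the depth for low genes.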
